A study of Homo sapiens with 3 samples.

Results

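The library described here holds the transcripts of LNCaP cells kept in control-CM, the control conditioned medium of a series on periprostatic adipose tissue. It was chosen by its label and is 1 of 3 libraries in the series. LNCaP is an established human prostate cancer cell line, obtained from ATCC and grown from a lymph node metastasis, that responds to androgens. The cells had been maintained in RPMI 1640 with 10% fetal bovine serum, were plated for 24 h and were then held for 72 h in medium of which 50% was conditioned medium (CM), with 2% fetal bovine serum. Those conditions were shared by all 3 libraries, and the other libraries received PPAT-CM (marked as tumor) or PVAT-CM (marked as normal) in place of control-CM. Neither is used below. The labels do not say what, if anything, conditioned the control-CM. Each medium had 1 library, so there is no spread between cultures, no test was possible, and every value describes this library of 1 cell line.

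A luminal cell of the prostate is a secretory epithelial cell. Androgen signalling works there with transcription factors such as FOXA1 and HOXB13 to switch on kallikrein proteases, membrane metalloreductases and surface proteases. The normal gland also stores zinc, releases citrate and makes large amounts of polyamines, and it lies on a layer of basal cells that express TP63 and KRT5.

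The library held 16534649 counts, of which 11435677 fell on nuclear genes. Genes of the mitochondrial chromosome took 30.8% of all counts, with 21.6% in the mitochondrial mRNAs and 9.06% in the mitochondrial rRNAs. Levels are given as CPM (counts per 1000000 of the library total) and, where genes are compared with each other, as TPM (counts per kilobase of exon, scaled to 1000000 over nuclear genes). A gene is called on at 1 CPM or more, which is 17 counts, and off at 3 counts or fewer, which is 0.181 CPM and the one-sided 95% limit of a count of 0. Intervals are exact Poisson 95% intervals with both sides, which reach 0.223 CPM for a count of 0, and cover counting error only.

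Of 19932 nuclear protein-coding genes, 12045 (60.4%) were on and 6315 (31.7%) were off, 4878 of the latter at a count of 0. The levels spanned a wide range, since 3242 genes lay between 1 and 10 CPM, 7417 between 10 and 100 CPM, 1342 between 100 and 1000 CPM and 44 at 1000 CPM or more. The median was 5.72 CPM and 6.03 TPM over all of these genes. The 1118 most counted nuclear genes held 50% of the nuclear counts.

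**Figure D1:**
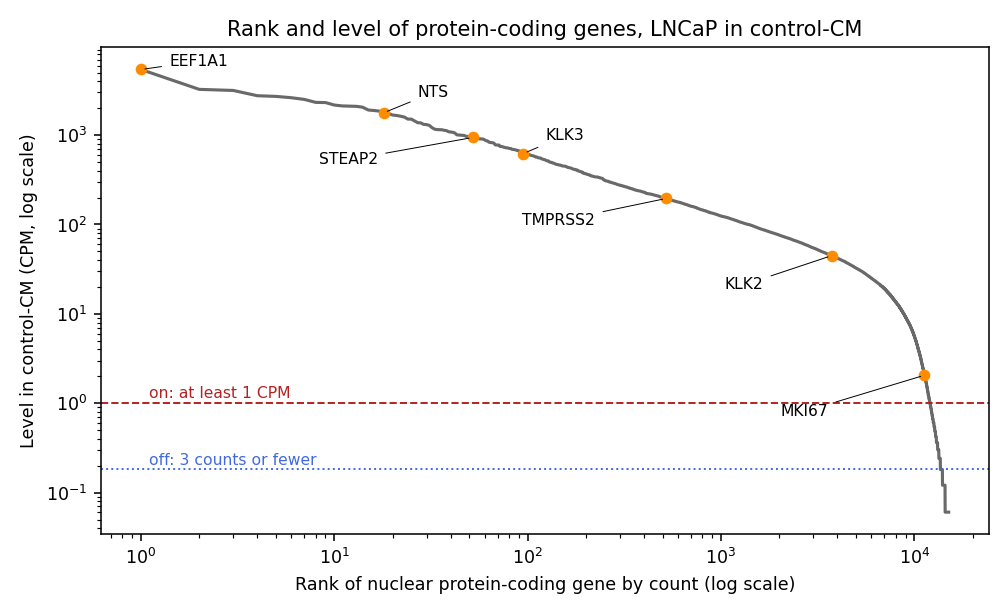
Level of each nuclear protein-coding gene with a count (vertical axis, CPM, log scale) against its rank by count (horizontal axis, log scale), with 7 genes marked. EEF1A1 stands first at 5415 CPM, KLK3 and STEAP2 lie among the first 100 genes, and the curve drops steeply near the threshold of 1 CPM.

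The label of the cells was set beside 3 luminal prostate markers given beforehand, KLK3, TMPRSS2 and STEAP2, and all were on. Since 60.4% of all protein-coding genes were on, being on alone says little about identity, and levels and ranks are given too. KLK3, which encodes prostate-specific antigen, a secreted kallikrein protease (chromosome 19, 50854915 to 50860764, GRCh38), had 10286 counts, 622 CPM (interval 610.1 to 634). It ranked 95 by count among protein-coding genes and 175 per length, at 710.1 TPM. STEAP2, a membrane metalloreductase of iron and copper on chromosome 7 (90167590 to 90238137), had 15542 counts, 940.0 CPM (925 to 955), rank 52 by count and rank 221 per length at 571 TPM. TMPRSS2, a transmembrane serine protease on chromosome 21 (41464551 to 41531116), had 3235 counts, 196 CPM (189 to 203), rank 522 by count and rank 937 per length at 169 TPM. All 3 markers thus lay in the upper 1000 protein-coding genes on both scales. The other luminal markers looked at were KLK2, HOXB13, SLC45A3 and FOLH1, which were on too and are described below.

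The kallikrein genes KLK3 and KLK2 are neighbouring paralogs, and the library held them at very different levels. KLK3 was 19.2 times as high as KLK2 per length (counting interval 17.8 to 20.7), at 710.1 TPM against 37.1 TPM from 740 counts. The ratio was 15.5 with the longest transcript as the gene's length. KLK4, another kallikrein of the cluster, stood at 1281 TPM from 7741 counts, which was 34.6 times KLK2 per length (32.1 to 37.3), or 23.4 times with the longest transcript. Reads from near-identical stretches of KLK2 and KLK3 could have been split or dropped by the counting, and the effect was not tested. The 60 bases below lie upstream of the annotated starts. They are shown because this stretch is closely alike in both promoters although the levels differ. The first begins 176 bases before the KLK3 start (chr19:50854739-50854798, plus strand) and the second 182 bases before the KLK2 start (chr19:50873257-50873316, plus strand), both from RefSeq on GRCh38.p14, with capitals on the androgen response element known in the KLK3 promoter and on the aligned bases of KLK2.
KLK3: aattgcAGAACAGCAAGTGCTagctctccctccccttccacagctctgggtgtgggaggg
KLK2: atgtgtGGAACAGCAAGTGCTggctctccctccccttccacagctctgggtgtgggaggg
The windows differed by A2T, T3G, C6T, A7G and A22G, with the KLK3 base first, the position counted from the 5′ end of the window, and the KLK2 base last. Only A7G lies within the 15 capitals. The longest run of bases shared by both promoters was 80 bases, and 225 of 294 aligned bases (76.5%) were identical over the whole RefSeq window. The letters AGAACA, read on either strand, occurred in 8 of 47 promoters (17%) of the prostate lists. They occurred in 14.9% of all promoters of the same length and in 11.1% of those of nuclear protein-coding genes. The share was 8.59% for protein-coding genes that were on and 16.2% for those that were off. These matches are a description, and no difference was tested.

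Genes for prostate secretory products ranged from high levels to no counts. Of 15 such genes 7 were on (46.7%, beside 60.4% of all protein-coding genes) and 6 were at a count of 0. This list and those below were chosen with earlier results of these data known, so shares on describe them and test nothing. SPON2, which encodes the secreted matrix protein spondin 2, had the most counts of the list (18977) and stood at 1011 TPM, below KLK4 and above KLK3 on the scale per length. ACP3, which encodes prostatic acid phosphatase, had 487 counts and 37.2 TPM, a level per length close to that of KLK2. RLN1 and RLN2, which encode relaxin hormones, stood at 115.7 TPM (398 counts) and 61.6 TPM (246 counts), and as close paralogs may share reads. AZGP1, encoding zinc-alpha-2-glycoprotein, had 16 counts and just missed the threshold at 0.968 CPM (0.553 to 1.57). TGM4, the prostate transglutaminase of the seminal clot, had 5 counts. MSMB, SEMG1, SEMG2, PIP, NPY and PATE1 were at 0, and among them MSMB encodes a major protein of seminal plasma and the SEMG genes the semenogelins that KLK3 cleaves.

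All 15 luminal transcription factors of the list were on, beside 60.4% of all protein-coding genes. FOXA1, a pioneer factor that opens chromatin, stood highest per length at 778 TPM (9676 counts). GATA2 (563 TPM), the prostate homeobox factor HOXB13 (552 TPM, 5974 counts) and the T-box factor TBX3 (549 TPM) followed at close levels per length. The epithelial factor SPDEF stood at 141 TPM (844 counts). The epithelial factor GRHL2 had 1656 counts. At the low end of the list ONECUT2 had 162 counts and KLF5 24 counts, 1.45 CPM.

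Of 19 luminal membrane and surface genes 16 were on (84.2%, beside 60.4% of all protein-coding genes) and none was off. FOLH1, which encodes the folate hydrolase known as PSMA and is a target of imaging and therapy, had the most counts (15679) and the highest level per length of the list at 1313 TPM, rank 71 among all protein-coding genes. STEAP1 stood at 665 TPM (3376 counts), so that STEAP2 was 0.858 times STEAP1 per length (0.827 to 0.891) although it had more counts. HPN, the serine protease hepsin, stood at 271 TPM, TMEFF2 at 118 TPM, and ABCC4, an exporter of cyclic nucleotides and prostanoids, at 104 TPM. SLC45A3, known as prostein, had 236 counts and 20.4 TPM. PSCA (84 counts) and the cold-sensing channel TRPM8 (31 counts) were low but on. STEAP4 (5 counts) and DPP4 (6 counts) lay between off and on.

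The 18 androgen-regulated genes were all on, with a median of 34.1 CPM, beside 60.4% on over all protein-coding genes. TPD52 stood at 142 TPM (3640 counts), the protease gene ADAMTS1 at 131 TPM (2887 counts), SORD, the sorbitol dehydrogenase, at 119 TPM (2293 counts) and ABHD2 at 98.7 TPM (3188 counts). CAMKK2, a kinase that activates AMPK, had 1390 counts, and NDRG1 had 1082. FKBP5, a co-chaperone of steroid receptors and a commonly used androgen target, had 155 counts and 4.67 TPM, under the median TPM of all protein-coding genes. PTGER4 was the lowest member at 18 counts.

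**Figure D2:**
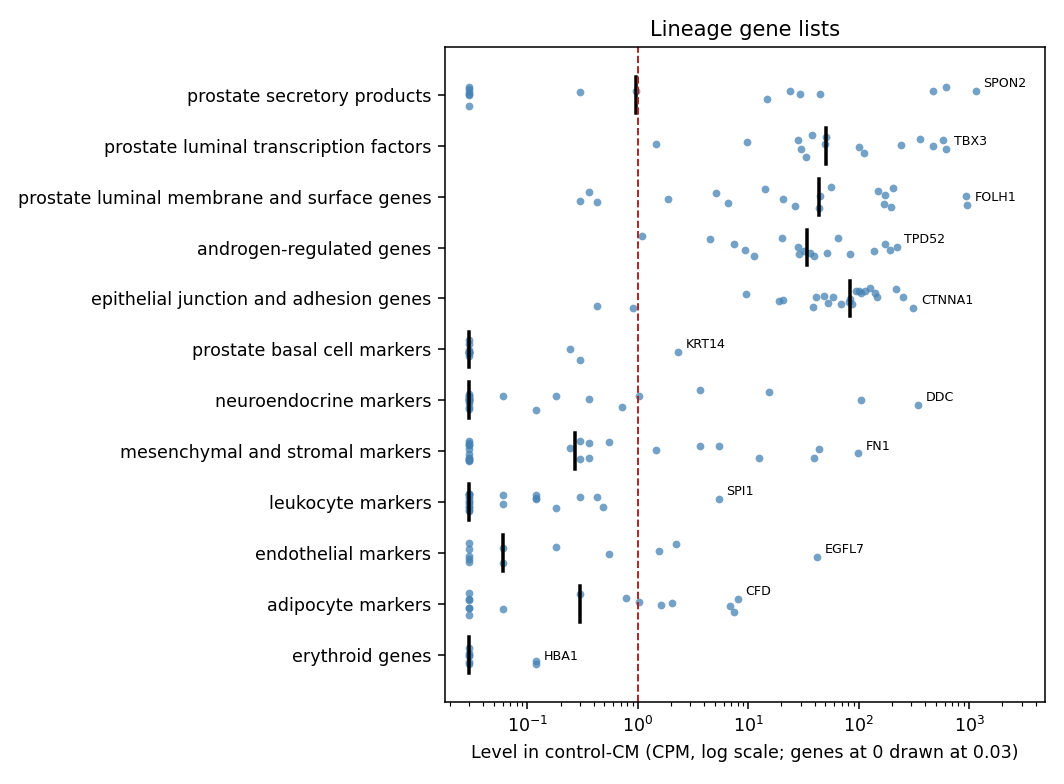
Level of each member (point, CPM, log scale, members at 0 drawn at 0.03) of 12 gene lists, with a black bar at the list's median, a dashed line at 1 CPM and the highest member named. Luminal factors, surface genes, androgen-regulated genes and junction genes lie mainly to the right of the line, while basal, leukocyte and erythroid genes lie to its left with KRT14 and SPI1 as exceptions.

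The most counted nuclear genes were those of the translation machinery. Among the top 30, 19 encode ribosomal proteins and 3 others act in or are regulated with translation. EEF1A1, the elongation factor that brings aminoacyl-tRNA to the ribosome, came first with 89540 counts, 5415 CPM (5380 to 5451). EEF2, the translocation factor, had 52179 counts and lay between RPL4 (53693 counts) and RPL13 (45551 counts). Ribosomal protein genes as a group took 11.1% of nuclear counts and 7.69% of all counts, and all 79 were on (60.4% of all protein-coding genes were). Their levels per length lay between 8.0 and 6733 TPM with a median of 1295 TPM, against 23.9 TPM for all protein-coding genes that were on. The 5 other protein-coding genes of the top 30 were GNAS, the stimulatory G protein subunit (44778 counts, 1077 TPM), ACTB, cytoplasmic actin (41423 counts, 3770 TPM), NTS (29366 counts), PPIA, the prolyl isomerase cyclophilin A (24949 counts, 1803 TPM), and MME. MME encodes neprilysin, a surface peptidase of luminal cells that degrades small peptides, and it had 23818 counts and 793 TPM. The remaining 3 genes, MTATP6P1, NEAT1 and MALAT1, do not encode proteins.

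**Figure D3:**
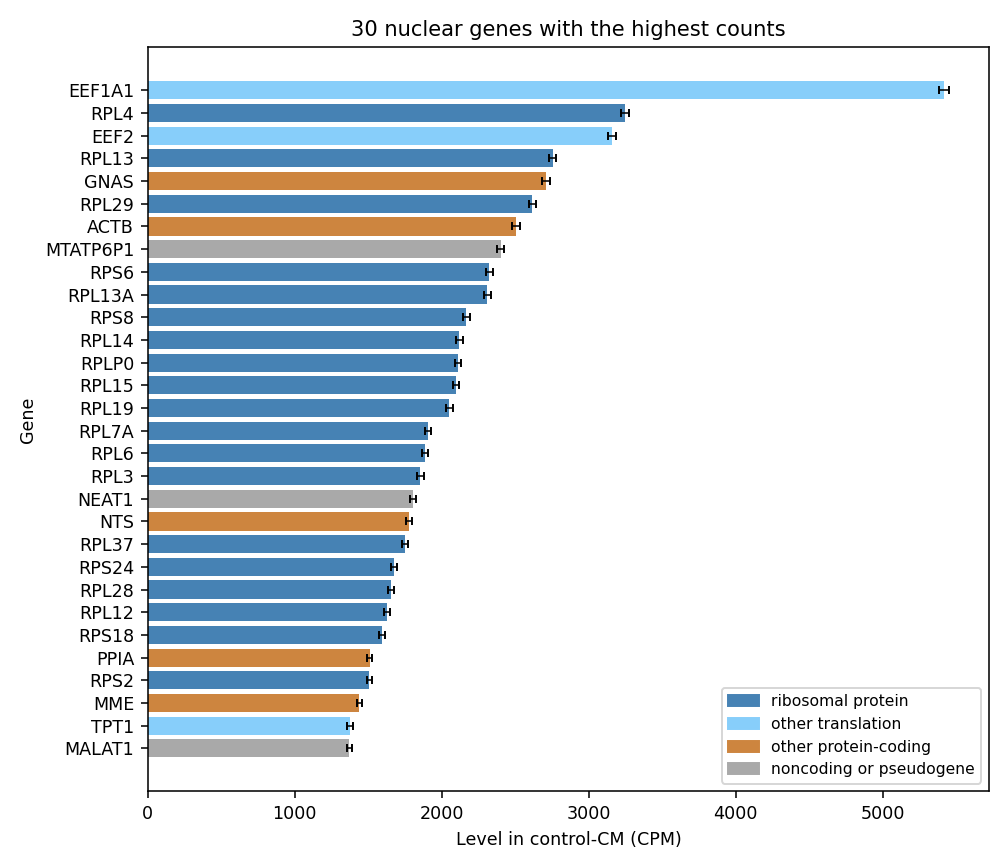
Level of the 30 nuclear genes with the highest counts (horizontal axis, CPM from 0), with bars coloured by kind of gene and error bars for the exact Poisson 95% interval. EEF1A1 stands above all others at 5415 CPM, and 19 of the 30 bars are ribosomal protein genes.

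Messenger RNAs of ribosomal proteins and elongation factors are known to begin with a short tract of pyrimidines, through which their translation answers to growth signals. The annotated starts of the most abundant genes were compared for that feature. The 30 bases from 15 before to 15 from the start are shown for 7 translation genes, all of them with such a tract. Not all ribosomal protein promoters have it, as the shares below show. They are also shown for NTS, PPDPF, KLK3 and STEAP2, where no run of C and T covers the annotated start. In NTS and KLK3 a run of 6 such bases ends just before that start, and in STEAP2 a longer run lies further upstream. Sequences are from RefSeq on GRCh38.p14, on the gene's strand, and capitals mark the run of C and T that covers the annotated start.
RPL29: caccgcagCCCCTTTCTCTTCCggttctag
RPL13A: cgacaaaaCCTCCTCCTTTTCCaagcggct
EEF1A1: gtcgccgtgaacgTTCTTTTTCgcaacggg
RPS6: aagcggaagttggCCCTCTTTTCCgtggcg
EEF2: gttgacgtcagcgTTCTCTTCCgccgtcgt
RPS18: cgcgtcacttccgCTCTCTCTTCCacagga
TPT1: agcggctgagtcggCCTTTTCCgcccgctc
NTS: gccagagcacctctcatagttcactcactt
PPDPF: ggcccccgcgcatataagtgggcgcgtccg
KLK3: tgggggaggctccccagccccaagcttacc
STEAP2: gctcttcccgactccagtcagcgttcctcg
A run of at least 6 bases of only C or T covering the start was found in 44 of 63 ribosomal protein promoters in the RefSeq table (69.8%) and in 13 of 23 promoters of the protein-coding genes of the top 30 (56.5%). The run was found in 3 of 7 promoters (42.9%) of the top 30 with ribosomal proteins left out. It was found in 728 of 9840 promoters of genes that were on (7.40%), in 7.51% of all promoters in the table, and in 2 of 47 promoters of the prostate lists (4.26%). The longest runs printed, in RPL29 and RPL13A, have 14 bases. The match was made on the strand of the gene and depends on the annotated start.

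The order per length was different among protein-coding genes. RPL29 was first at 6733 TPM, RPL19 second at 6170.1 TPM and NTS the third at 6048 TPM (5979 to 6118). NTS encodes neurotensin, a peptide hormone of gut and brain. PPDPF followed at 5198 TPM, and ACTB and PPDPF were the only genes besides NTS in the top 20 per length that encode neither a ribosomal protein nor an elongation factor. The top 30 by count and the top 30 by counts per kilobase shared 17 genes. Outside every list and the genes above, the highest levels per length among protein-coding genes belonged to PTMS, encoding parathymosin (2414 TPM), the linker histone gene H1-2 (2370.1 TPM), ACTG1 (2318 TPM), MARCKSL1 (2247 TPM), SRP14 of the signal recognition particle (2175 TPM), PEBP1 (2102 TPM), the ferritin light chain FTL (2097 TPM), EDF1 (1992 TPM), the complex I subunit NDUFS5 (1925 TPM) and PRAC1 (1867 TPM). PRAC1 is a small gene beside HOXB13 known from prostate, rectum and distal colon. With the longest transcript as length, NTS stood at 5317 TPM and rank 7.

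Of 39 other secreted proteins of epithelial cells 20 were on (51.3%, beside 60.4% of all protein-coding genes) and 9 were at 0. After NTS, the stress-induced cytokine GDF15 was highest at 1790.1 TPM (11665 counts). PSAP, the precursor of the lysosomal saposins, stood at 555 TPM, the protease inhibitor CST3 at 320.4 TPM, HDGF at 214 TPM and the angiogenic factor VEGFA at 199 TPM, the last from 8964 counts. TIMP1, IGFBP4, IL6 and CXCL8 had no count. MIF, listed here with 8 counts, shares most of its exons with another gene and is taken up with such genes below.

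Epithelial junction genes were broadly present. Of 24 members 22 were on (91.7%, beside 60.4% of all protein-coding genes), and none was off, with CLDN1 (7 counts) between off and on. CLDN3, a tight junction claudin, stood at 361 TPM (1437 counts), CLDN7 at 240.3 TPM (1870 counts), EPCAM at 222 TPM (1743 counts) and CDH1, encoding E-cadherin, at 186 TPM (3589 counts). The catenins CTNNA1 (186 TPM) and CTNND1 (151 TPM), the desmosomal linker JUP (157 TPM) and TJP1 (66.4 TPM) were on as well. The keratin genes were narrow in contrast. Of 55 keratin genes 5 were on and 48 were off, and KRT8 and KRT18, the pair of simple epithelia, held 91.9% of the 12098 keratin counts. KRT18 stood at 546 TPM and KRT8 at 262 TPM, a ratio of 2.08 that fell to 1.34 with the longest transcript as length, and 16.3% of the KRT18 exon bases lie in exons of another gene. KRT10 had 900 counts, KRT14 38 and KRT80 17. KRT19 had no count, KRT7 had 2 and KRT20 had 4.

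Of 49 receptor tyrosine kinases 26 were on (53.1%, beside 60.4% of all protein-coding genes), 17 reached 5 CPM and 12 were at 0. Over all 19932 protein-coding genes 10179 reached 5 CPM and 4878 were at 0. Of the 6 with the most counts, DDR1, a collagen receptor, stood at 71.3 TPM (2032 counts), ERBB2 at 70.3 TPM (2267 counts), EPHB4 at 37.4 TPM, ERBB3 at 32.7 TPM, RYK at 24.4 TPM and EGFR at 16.9 TPM. DDR1 and ERBB2 did not differ per length beyond their counting intervals, and ERBB2 was 4.16 times EGFR (3.81 to 4.54), or 6.83 times with the longest transcript. INSR, the insulin receptor, was 7.03 times IGF1R per length (5.73 to 8.68). KIT, AXL and ERBB4 had no count. Of 26 integrin genes 14 were on (53.8%) and 8 reached 5 CPM. The beta 1 chain ITGB1, which pairs with many alpha chains, stood at 118 TPM (2211 counts), and ITGB5 (21.8 TPM), ITGAE (17.2 TPM), ITGAV (12.2 TPM), ITGA6 (11.8 TPM), ITGA5 (11.2 TPM) and ITGA3 (9.48 TPM) lay well under it.

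Of 48 nuclear receptor genes 29 were on, 60.4% and thus at the share of all protein-coding genes, and 14 were off. The highest level per length belonged to the orphan receptor ESRRA at 161 TPM (1522 counts), followed by NR2F6 at 139 TPM (1158 counts) and the oxysterol receptor NR1H2 at 110.3 TPM (1293 counts). RXRA, the partner of many of these receptors, stood at 81.3 TPM (2813 counts). Among the steroid receptors, the glucocorticoid receptor NR3C1 had 136 counts (4.75 TPM). The progesterone receptor PGR had 10 counts, and the estrogen receptor ESR1, with 2 counts, was off.

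HOX genes, which specify position along the body axis, were on in 3 of their 4 clusters. Of 39 genes 17 were on (43.6%, beside 60.4% of all protein-coding genes). At 5 CPM 8 of the 39 were on, beside 10179 of all 19932 protein-coding genes. The genes on were 4 of 11 in cluster A, 6 of 10 in cluster B, 7 of 9 in cluster C and 0 of 9 in cluster D. In cluster D 8 genes had no count and HOXD13 had 1. HOXB13 alone held 5974 of the 6190 counts of cluster B and was 6.57 times HOXC6 per length (6.13 to 7.04), the next gene of the family by count (929 counts, 84.0 TPM). Neighbouring HOX genes share exons, and with genes of over 10% shared exon bases left out 11 were on. HOXC4 had 504 counts, HOXC9 425, HOXC12 359 and HOXC13 260.

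Genes that mark molecular subtypes of prostate cancer were mixed. ETV1, an ETS factor known to be rearranged in LNCaP, had 3425 counts and 114 TPM, while ERG and FLI1 had none, ETV4 had 1 and ETV5 had 5. GOLM1 had 3280 counts (248 TPM), the long noncoding RNA SCHLAP1 440 counts (98.1 TPM), ELK4 690, AMACR, an enzyme of branched-chain fatty acids used as a tumour marker, 435 counts, and PCGEM1 46. The AMACR count is uncertain, since 64.8% of its exon bases lie in exons of another gene. PCA3 had 13 counts, 0.786 CPM, SPINK1 had 1 and PCAT14 had none. Of 8 mismatch repair genes 7 were on (87.5%, beside 60.4% of all protein-coding genes). PMS2 stood at 108 TPM (1328 counts), MSH3 at 10.2 TPM (150 counts) and MSH6 at 6.96 TPM (239 counts). PMS2 has close copies elsewhere in the genome, with which it may share reads. MLH3 (597 counts) and PMS1 (589 counts) were on, and the exonuclease gene EXO1 had 8 counts.

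Metabolic genes were mostly on. Over 8 lists with 198 genes, 169 were on (85.4%, beside 60.4% of all protein-coding genes) and 23 were off (11.6%, beside 31.7%). All 15 polyamine genes were on. OAZ1, the antizyme that restrains ornithine decarboxylase, stood at 1388 TPM (14895 counts), the spermidine synthase SRM at 434 TPM, AMD1, which makes the aminopropyl donor, at 341 TPM (7472 counts), the acetyltransferase SAT1 at 333 TPM, the spermine synthase SMS at 275 TPM, and ODC1, the ornithine decarboxylase, at 181 TPM (1674 counts). AZIN1 had 1689 counts.

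Of 32 genes of the citrate cycle and pyruvate entry 30 were on. SLC25A1, the mitochondrial citrate exporter, was highest per length at 304 TPM (1991 counts), before ACLY, which splits citrate in the cytosol, at 199 TPM (3242 counts), and IDH1 at 188 TPM (2766 counts). OGDH stood at 134 TPM, MDH2 at 132 TPM and the citrate synthase CS at 91.6 TPM (1831 counts). Of 24 zinc transporters 17 were on (70.8%, near the 60.4% of all protein-coding genes). These were 6 of 10 SLC30 genes, which move zinc out of the cytosol, and 11 of 14 SLC39 genes, which bring it in. SLC30A4 stood at 378 TPM (9523 counts) and SLC39A8 at 153 TPM (3096 counts), and all other members were under 80 TPM, among them SLC39A4 (1167 counts), SLC30A9 (1160 counts), SLC39A3 (1037 counts) and SLC30A5 (970 counts). SLC39A1, the importer best known from prostate, had 25 counts, but 69.1% of its exon bases lie in exons of another gene, so that its level is uncertain.

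Lipid genes covered synthesis and breakdown alike. Of 19 genes of fatty acid synthesis and desaturation 16 were on (84.2%, beside 60.4% of all protein-coding genes). The stearoyl-CoA desaturase SCD stood at 384 TPM (6423 counts), the fatty acid synthase FASN at 347 TPM (10132 counts), the regulator SREBF1 at 237 TPM, TECR at 135 TPM, the desaturase FADS2 at 113 TPM and the acetyl-CoA carboxylase ACACA at 84.9 TPM, the last 12.7 times ACACB per length (11.3 to 14.3). Of 25 cholesterol genes 24 were on, with the sterol reductase TM7SF2 highest at 424 TPM (4515 counts) and SC5D (138 TPM), SREBF2 (117 TPM), DHCR7 (113 TPM) and FDFT1 (85.4 TPM) next among those with the most counts. The exception, CYP51A1 with 3 counts, shares 83.2% of its exon bases with another gene. Of 24 genes of fatty acid oxidation 23 were on. ACADVL, the mitochondrial very long chain acyl-CoA dehydrogenase, had 18542 counts and 1221 TPM, 11 times ACADM (10.4 to 11.6), and ECHS1 stood at 636 TPM. ECI1 (181 TPM), HADHB (141 TPM), CPT1A, the gatekeeper of mitochondrial import (132 TPM), and SCP2 (129 TPM) followed among the most counted genes. ACADL had no count.

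Of 34 glycolysis genes, counted over tissue-specific isoenzymes and transporters, 23 were on (67.6%, near the 60.4% of all protein-coding genes) and 6 were at 0. GAPDH stood at 1458 TPM (13573 counts), TPI1 at 795 TPM, PKM at 561 TPM (15005 counts), LDHA at 514 TPM (9969 counts), ENO1 at 462 TPM and GPI at 202 TPM. LDHA was 4.53 times LDHB (4.25 to 4.83). HK1 and HK2, the hexokinases of most tissues, stood at 33.3 TPM and 29.6 TPM, a ratio of 1.12 whose counting interval reached down to 1.00. PFKL was 1.11 times PFKM per length (1.04 to 1.18), and 0.804 times with the longest transcript as length, so the order of these isoenzymes is not settled. ALDOC had 2058 counts against 60 for ALDOA, but ALDOA shares 53.5% of its exon bases with another gene.

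Of 25 genes of serine, one-carbon and glutamine metabolism 21 were on (84%, beside 60.4% of all protein-coding genes). PSAT1, the aminotransferase of serine synthesis, stood at 1337 TPM (9134 counts), SHMT2, the mitochondrial serine hydroxymethyltransferase, at 251 TPM (3789 counts) and PHGDH, the entry enzyme of the pathway, at 220.3 TPM (6340 counts). PSAT1 was 6.07 times PHGDH per length (5.88 to 6.27), and 2.09 times with the longest transcript, so the size of that difference rests on the gene model. GLUD1 stood at 168 TPM, MTHFD2 at 126 TPM and GPT2 at 101 TPM. SHMT2 was 6.31 times SHMT1 per length, or 3.38 times with the longest transcript.

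**Figure D4:**
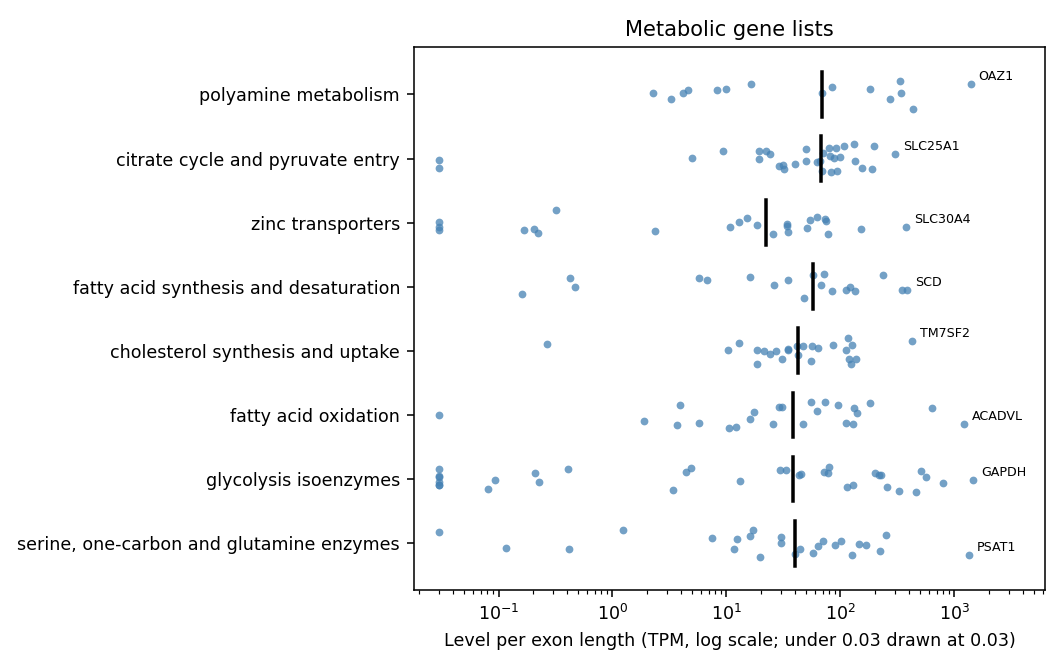
Level per length of each member (point, TPM, log scale, members under 0.03 drawn at 0.03) of 8 metabolic lists, with a black bar at the median and the highest member named. Medians lie between 22.1 TPM for zinc transporters and 68.8 TPM for polyamine genes, and OAZ1, ACADVL, GAPDH and PSAT1 lie above 1000 TPM.

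Enzymes that convert or inactivate steroids were on in 9 of 26 cases (34.6%, beside 60.4% of all protein-coding genes), and 5 genes were at 0. UGT2B17 and UGT2B15, which attach glucuronic acid to androgens, stood at 549 TPM (3560 counts) and 101 TPM (657 counts), a ratio of 5.42 (4.98 to 5.90), with the caution that paralogs may share reads. HSD17B10 stood at 233 TPM (812 counts) and HSD17B4, a peroxisomal enzyme, at 130.5 TPM (4344 counts). Of the genes of the steroid 5-alpha-reductase family, SRD5A3 stood at 25.1 TPM, SRD5A1 at 19.4 TPM and SRD5A2 had no count. CYP17A1 and HSD17B3, enzymes of androgen synthesis in adrenal and testis, had no count either, but share 41.1% and 77.6% of their exon bases with another gene, so their absence is uncertain. All of the CYP17A1 overlap lies on the opposite strand, and the strand setting of the counting is not given. AKR1C4 and SULT2A1 had no count.

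Of 28 proliferation genes 25 were on (89.3%, beside 60.4% of all protein-coding genes). At 5 CPM 12 of the 28 were on, beside 10179 of all 19932 protein-coding genes. The median was 3.36 CPM against 5.72 CPM over all protein-coding genes, and per length 5.62 TPM against 6.03 TPM. PCNA stood at 207 TPM (953 counts), the cyclin CCND1 at 111 TPM (1675 counts), MCM7 at 57.7 TPM (790 counts), CDK1 at 33.0 TPM (405 counts), MCM3 at 29.2 TPM (333 counts) and CCND3 at 19.4 TPM (352 counts). MKI67, which encodes the nuclear antigen Ki-67 of cycling cells, had 34 counts (2.06 CPM, 1.42 to 2.87) and the topoisomerase TOP2A 36. CCND2 was off with 1 count. Secretory pathway and chaperone genes stood higher per length. All 26 genes of the endoplasmic reticulum list were on, with a median of 188 TPM, led by the chaperone CALR at 1108 TPM (9386 counts), and among the most counted were HSPA5 (580.2 TPM), HSP90B1 (531 TPM), PDIA3 (441 TPM), SSR4 (287 TPM) and CANX (286 TPM). Of 17 cytosolic chaperone genes 16 were on, with HSP90AB1 at 1759 TPM and the small heat shock protein HSPB1 at 1103 TPM.

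Genes of other cell types were mainly off. Over 20 lists with 250 genes, 53 were on (21.2%, beside 60.4% of all protein-coding genes) and 169 were off (67.6%, beside 31.7%), 129 of them at 0. At a threshold of 5 CPM 26 of the 250 were on, beside 10179 of all 19932 protein-coding genes. Lists and members were chosen with earlier results of these data known, so these shares describe the lists and are no test. Of 12 basal cell markers 9 had no count, TP63, KRT5, KRT15, KRT17, KRT6A, KRT6B, DSG3, NGFR and CAV1. KRT14 was on at 38 counts (2.30 CPM, 1.63 to 3.15), and COL17A1 and S100A2 had 5 and 4 counts. Among 22 leukocyte markers SPI1 alone was on with 89 counts, PTPRC and CD3E had none, and the list summed to 120 counts. None of 8 erythroid genes was on, and their sum was 4 counts.

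Among 22 neuroendocrine markers 5 were on (22.7%, beside 60.4% of all protein-coding genes) and 12 were at 0. DDC, an enzyme that makes dopamine and serotonin, stood at 576 TPM (5641 counts), and the enolase isoform ENO2 at 129.7 TPM (1733 counts). DLL3, a Notch ligand, had 253 counts, the synaptic vesicle gene SYP 60 and SCG2 17. CHGA, the granule protein chromogranin A, was off with 3 counts, NCAM1 had 12, and the factors NEUROD1 and INSM1 had none.

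Of 24 mesenchymal and stromal markers 7 were on (29.2%, beside 60.4% of all protein-coding genes) and 11 were at 0. FN1, fibronectin, had 1628 counts (30.1 TPM), COL1A1 718 counts (23.4 TPM), VIM 653 counts (40.5 TPM), TWIST1 209, TAGLN 90, COL3A1 60 and SNAI1 24. COL1A2, which encodes the partner chain of COL1A1, had no count, and neither did the fibroblast genes DCN, FAP and POSTN, the muscle gene DES or CDH2, N-cadherin. Of 12 endothelial markers EGFL7 (692 counts, 86.8 TPM), ESAM (37 counts) and VWF (26 counts) were on, while PECAM1 had 1 count and CDH5, KDR, TEK, CLDN5 and PLVAP none. Of 15 adipocyte markers 6 were on (40%, beside 60.4% of all protein-coding genes). CFD, the serum protease adipsin, had 133 counts, the regulators PPARG and CEBPA 122 and 112, PLIN4 34, GPD1 27 and LIPE 17, whereas ADIPOQ, LEP, FABP4, LPL, CIDEA and CIDEC were at 0. ADIPOQ shares 46.2% of its exon bases with another gene, so its own 0 is less certain.

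A few genes of distant tissues were on, in lists with a smaller share on than the 60.4% of all protein-coding genes. Of 13 pluripotency and germ cell genes 5 were on, with the cancer-testis genes MAGEA3 at 309.5 TPM (1728 counts) and PRAME at 262 TPM (3087 counts) above POU5F1 (105 counts), MAGEA4 (32 counts) and SYCP3 (30 counts). MAGEA3 has near-identical copies, and the split of its reads is uncertain. MB, the oxygen store myoglobin, stood at 109.8 TPM (743 counts), whereas MYOD1 and MYOG had no count, and TTN (163 counts), TNNT2 (32 counts) and ACTA1 (20 counts) completed the 4 of 12 muscle genes that were on. Further genes on, none of them alone in its list, were MBP with 329 counts among neural genes and the intestinal disaccharidase SI with 179. The pancreatic trypsinogen PRSS1 had 126 counts and the lung gene AGER 111. The urothelial plaque gene UPK3A had 155 counts, in a list with 2 of 5 genes on and 2 off. Of the hepatocyte genes CYP2E1 (65 counts), TTR (52 counts) and APOA1 (50 counts) were on, and ALB had 2 counts. None of 10 breast and gynaecological genes was on.

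Low counts need care where genes share exons. The shared percentages given here count exons of other genes on either strand. Among the 522 protein-coding genes with over 90% of their exon bases inside exons of another gene, 94.8% were off and 1.34% on, against 37.3% off and 54.6% on among the 11089 genes with no shared exon base. Genes with smaller overlaps were on more often, at 75.8% for up to 10% shared bases. EEF1G, a subunit of the elongation factor complex, had no count and 99.9% shared bases, while its partners EEF1B2 and EEF1D had 1824 and 1304 counts. ALDOA (60 counts) and MIF (8 counts, 61.9% shared) lie in the class of over 50 to 90%, of which 48.0% were off. Genes with over 10 to 50% shared bases were on in 73.0% of cases, and a few low counts in that class are EIF4A1, a translation initiation helicase (55 counts, 48.6% shared), RPS10 (66 counts, 39.4% shared), RPL17 (201 counts, 35.3% shared) and the tubulin TUBA1B (132 counts, 36.6% shared). The lowest ribosomal protein gene per length, RPL36A (99 counts, 8.0 TPM), shares only 8.4% of its exon bases. How reads that fit 2 genes were assigned is not given in the sources used here, and whether it sets these counts was not tested. HSPA1A had 11 counts and its near-identical copy HSPA1B 1001, a split that these counts cannot resolve.

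**Figure D5:**
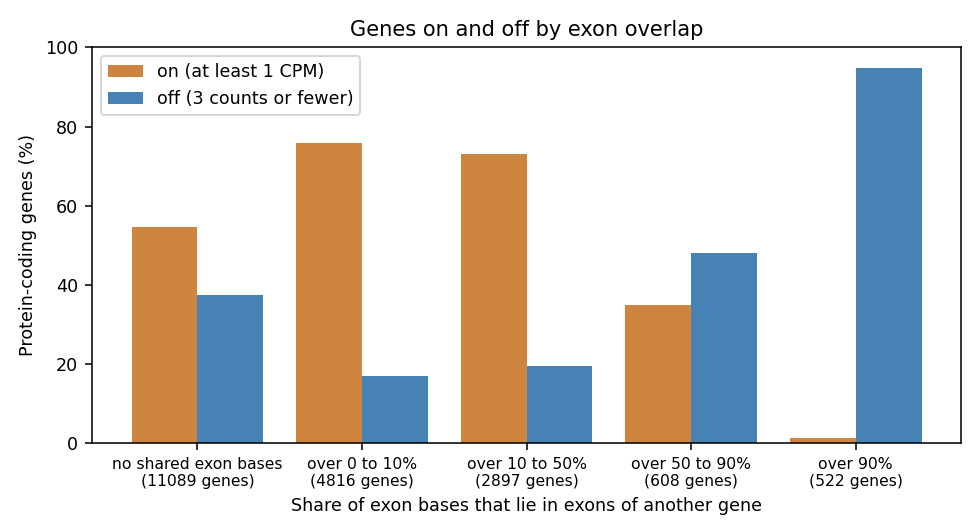
Share of protein-coding genes that were on or off (vertical axis, percent) in 5 classes of the share of exon bases that lie inside exons of another gene (horizontal axis). In the class over 90% the off share reaches 94.8%, against 37.3% in the class with no shared exon base.

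Noncoding genes took a small part of the nuclear counts, 1.36% in lincRNAs and 0.857% in antisense genes. NEAT1, the scaffold of paraspeckles (29817 counts, 419 TPM), and MALAT1, a neighbour on chromosome 11 found in nuclear speckles (22679 counts, 823 TPM), had the most counts of the lincRNAs. The snoRNA host genes GAS5 (6919 counts), SNHG29 (5934 counts) and SNHG14 (3671 counts), and DANCR (6756 counts) and CHASERR (3304 counts) were next among genes without a protein. GPX1, with 4608 counts, encodes glutathione peroxidase and is carried as a polymorphic pseudogene in GENCODE 29. MTATP6P1 (39727 counts) and MTCO1P12 (3763 counts) are nuclear copies of mitochondrial genes on chromosome 1 and may hold reads of the mitochondrial genes, which was not tested. All 417 such copies together held 0.390% of nuclear counts.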

How the data were processed

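Per the labels' protocols, RNA of the LNCaP cells came from RNeasy columns and libraries from the KAPA mRNA HyperPrep kit. The authors deposited raw whole-number counts per Ensembl gene. The submitters' processing notes name GRCh38 as the build and, as tools, FastQC, Trimmomatic, HISAT2, featureCounts and edgeR. Their versions, the strand setting and the handling of reads in overlapping genes are not given in the sources used. Of 58884 rows, 58472 had a symbol in a gene name table, 58611 matched GENCODE 29, which gave coordinates, gene types and exon lengths (the union of exons), and 8 matched neither.

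From these counts CPM, TPM over nuclear genes, exact Poisson intervals and Clopper-Pearson shares were computed with Python 3.11.15, numpy 2.4.6, pandas 2.3.3 and scipy 1.17.1, and figures with matplotlib 3.10.9. The steps were tested on simulated data. Intervals at 95% and the floor of 3 counts cover counting error only, and may be too narrow because the labels name no molecular identifiers. The library had 16534649 counts.

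The library was taken by its label. A total of 48 gene lists with 951 genes were described by counts of members on and off beside all protein-coding genes. Members and lists were chosen with earlier results of these data known. Genes named are the 30 nuclear genes with the most counts, the 20 highest per length, KLK3, TMPRSS2 and STEAP2, the members of short lists, the 6 most counted of longer lists, single members of a subfamily, the 10 most counted noncoding genes and the 10 highest per length outside every list. All other named genes, and the pairs whose ratio is given, were chosen after their values were seen. RefSeq promoters run from 250 bases before to 50 after the start. Alternatives were other denominators, thresholds, gene lengths and rankings. Settings on shared exon bases and on nuclear copies of mitochondrial genes were added after the data were seen. Some genes this rule takes are not reported here.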

Additional observations from a re-analysis of the deposited data

How the results depend on the processing

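With 1 library no replicate could be left out, and no paired analysis was possible because each medium has 1 library. The number of protein-coding genes on lay between 8803 and 12729 over 6 other settings, and the number off between 4878 and 7425 over 3. The 250 genes of other cell types held 26 on at 5 CPM in place of 53 at 1 CPM, and the counts for the prostate and metabolic lists stayed within 1.5 times under all settings run. Of 47 single lists, 19 moved by over 1.5 times at 5 CPM, 2 at 0.5 CPM, 3 at a level of 1 TPM, 5 without genes of over 10% shared exon bases, and 0 with nuclear counts as the denominator. Ranking by counts per kilobase kept 17 of the top 30 nuclear genes.

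Levels per length moved by more than the counting interval. With the longest transcript, KLK3 stood at 853 TPM, TMPRSS2 at 224 TPM, STEAP2 at 495 TPM and NTS at 5317 TPM, and with unshared exon bases as the length at 664, 158, 534 and 5655 TPM in the same order. These 4 genes share no exon bases, so the latter values differ through the scaling total alone. As shares of nuclear in place of all counts, ribosomal proteins held 11.1% (7.69%), the top 10 nuclear genes 4.26% (2.94%), the top 100 18.2% (12.6%) and the top 1000 47.9% (33.2%). At this depth the one-sided 95% limit of a count of 0 is 0.181 CPM, so genes near that limit cannot be told from absent ones.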
